A study of Rattus norvegicus with 27 samples.

Results

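Expression of 9 calmodulin-related and calcium-binding genes (Pcp4, Pcp4l1, Cabp7, Cabp1, Calb2, Calm2, Calm3, Hpca and Ncald) was examined in the cerebellum of adult rats. They are the genes whose symbols matched these names among the 17321 in the count table. Punches had been taken on postnatal day 70 from the interpositus nucleus (IP), one of the deep nuclei of the cerebellum, in Long-Evans rats, and their messenger RNA was sequenced. All rats had been cross-fostered on postnatal day 2. NT rats (no treatment) were then reared normally, and LB rats spent days 2 to 9 with limited bedding, when the dam had scant material for a nest. There were 12 NT rats (5 female, 7 male) and 15 LB rats (7 female, 8 male), and each sample was from 1 animal. A punch holds many cell types, so fewer cells of a type and less RNA per cell cannot be told apart.

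The genes were not a neutral sample. Pcp4l1 and Cabp7 were chosen by their difference between NT males and NT females, Pcp4l1 also by its difference between LB males and LB females, and Pcp4 by its difference between LB and NT animals. These values are a description: where a count of genes past a threshold includes them, the choice of members fixed it, and nothing is read from it. It is not recorded whether expression values also picked the other members, so no member's difference between NT males and NT females is given a p value.

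Calcium entering a neuron is read by proteins that bind it in EF-hand loops. Calmodulin is the most widespread of them and is encoded by separate Calm genes that specify the same protein. PCP4 (PEP-19), abundant in Purkinje cells, is a small protein with an IQ motif that binds calmodulin and alters how it exchanges calcium, and PCP4L1 is its relative. CABP1 and CABP7 are calmodulin-like EF-hand proteins. CABP1 binds voltage-gated calcium channels and inositol trisphosphate receptors, and CABP7 is held in internal membranes. Hippocalcin (Hpca) and neurocalcin delta (Ncald) are neuronal calcium sensors that move to membranes when calcium binds. Calretinin (Calb2) is a calcium buffer known in cerebellar granule cells and unipolar brush cells.

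Because the contrast between Pcp4 and Pcp4l1 and between Cabp1 and Cabp7 runs through the results, the 250 bases before the start of each of these genes are shown in the orientation of the gene. They were taken from RefSeq on the GRCr8 build, which held 5 of the 9 members (Hpca was the fifth). Capitals mark matches on either strand to a TATA box (TATAAA), a GC box (GGGCGG, matches may overlap) or an E-box (CANNTG). Pcp4 lies at chr11:49269936-49270185 on the plus strand, Pcp4l1 at chr13:86144900-86145149 on the minus strand, Cabp7 at chr14:83832668-83832917 on the minus strand, and the first of the 2 starts of Cabp1 at chr12:47085042-47085291 on the plus strand.
Pcp4: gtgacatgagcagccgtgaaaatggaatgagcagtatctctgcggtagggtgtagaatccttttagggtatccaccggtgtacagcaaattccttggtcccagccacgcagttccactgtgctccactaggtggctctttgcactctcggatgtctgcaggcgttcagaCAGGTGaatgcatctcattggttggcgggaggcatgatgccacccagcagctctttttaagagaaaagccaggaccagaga
Pcp4l1: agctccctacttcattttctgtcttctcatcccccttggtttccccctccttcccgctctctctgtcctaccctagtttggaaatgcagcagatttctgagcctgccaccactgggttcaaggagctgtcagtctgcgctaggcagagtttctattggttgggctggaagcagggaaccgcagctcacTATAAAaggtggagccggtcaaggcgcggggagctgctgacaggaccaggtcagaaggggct
Cabp7: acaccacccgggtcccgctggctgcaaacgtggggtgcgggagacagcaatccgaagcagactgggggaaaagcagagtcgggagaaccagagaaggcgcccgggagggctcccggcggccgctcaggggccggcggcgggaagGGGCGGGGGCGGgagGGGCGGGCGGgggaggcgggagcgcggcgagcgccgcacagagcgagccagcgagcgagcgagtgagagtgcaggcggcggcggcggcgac
Cabp1: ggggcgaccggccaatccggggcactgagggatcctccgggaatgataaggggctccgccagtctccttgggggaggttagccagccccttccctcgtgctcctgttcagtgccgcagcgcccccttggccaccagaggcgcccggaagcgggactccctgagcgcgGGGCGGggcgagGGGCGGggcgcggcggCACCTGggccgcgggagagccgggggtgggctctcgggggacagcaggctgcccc

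The stretch before Pcp4 held an E-box and no TATAAA match, and the stretch before Pcp4l1 held a TATA box and no E-box. Among 33469 RefSeq promoter stretches of this length, 12.9% held TATAAA and 65.5% held an E-box. The stretches before Cabp7 and the first start of Cabp1 held 4 and 2 matches to the GC box, which 30.5% of all stretches held at least once. The stretch before the second start of Cabp1 held no match to the GC box, the E-box or TATAAA. G and C made up 76.0% of the bases before Cabp7, and 75.2% before the first and 54.8% before the second start of Cabp1. They made up 52.4% before Pcp4, 56.0% before Pcp4l1 and a median of 51.2% over all stretches. A match describes the letters only. No member among the 5 held TGACGTCA, the cyclic AMP response element, which was in 1.6% of all stretches.

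In the rn6 build, to which the authors aligned the reads, Pcp4 covers chr11:36851035-36912272 on the plus strand (4 exons) and Pcp4l1 covers chr13:89542377-89565813 on the minus strand (3 exons). Cabp7 covers chr14:84968125-84978236 on the minus strand and Cabp1 covers chr12:47185449-47209785 on the plus strand. Counts are of all annotated exons of a gene. The record of Calm2 joins 4 exons at chr6:11067675-11080078 with a single block of 1114 bases at chr15:65506871-65507984, so its count adds reads from both places. The Calm genes are also near-identical in their coding sequence, and it is not given how reads that match several places were handled. The counts of Calm2 and Calm3 are therefore uncertain. Hpca shares 16 exon bases with Tmem54, and the strand setting of the counting is not given.

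Total counts per animal were between 11836684 and 24169170 (median 16034036), and 12107 genes had enough counts for a test, all 9 members among them. The lowest counts of the rarest members were 50 for Pcp4l1 and 107 for Cabp7. Values below are CPM, read counts scaled to the library size after TMM normalization in edgeR. The Y-linked gene Eif2s3y had at most 3 counts in the 12 females and at least 516 in the 15 males. Granule cell marker genes were high in all punches (Gabra6 between 193 and 1270 CPM). Of the markers of deep cerebellar nucleus neurons, Slc17a6 was at most 2.89 CPM in NT females, at most 3.26 CPM in LB females, and ranged from 0.28 to 380 CPM in NT males and from 0.475 to 74.9 CPM in LB males. Male 6112 (NT) stood apart, with the highest Slc17a6 and 131 CPM of the cholinergic gene Slc5a7, which had a median of 0.688 CPM in NT males and was at most 1.12 CPM in LB males. Forebrain markers were also high in some males: Tbr1, of cortical neurons, was at most 4.33 CPM in females but reached 163 CPM in NT male 6111 and 106 CPM in LB male 122, against medians of 3.30 and 6.45 CPM in the NT and LB males. The part of these differences in the results below was not tested.

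Per kilobase of exon, the members formed a ladder. Calm2 had the highest mean level over the 27 animals, 1314 ± 226 CPM per kilobase (SD), followed by Calm3 (1272 ± 283) and Pcp4 (1137 ± 320). By this measure the neighbours overlapped, since Calm2 was above Calm3 in 19 animals and Calm3 above Pcp4 in 16 of 27. The exon length of Calm2 includes the block of 1114 bases on chr15, so its place in the ladder depends on that record. In CPM, without division by length, Calm2 was between 1.74 and 4.86 times as high as Calm3. Calb2 followed at 670 ± 181 and Hpca at 172 ± 78.9 CPM per kilobase, and each step from Pcp4 to Calb2, from Calb2 to Hpca and from Hpca to Cabp1 held in 27 of 27 animals. Cabp1 (93.3 ± 21) was above Ncald (56.4 ± 59.3) in 22 animals. Pcp4l1 (10.9 ± 13.4) and Cabp7 (7.52 ± 8.29) were lowest. Pcp4l1 was above Cabp7 in 0 of 5 NT females but in 5 of 7 NT males, in 3 of 7 LB females and in 6 of 8 LB males, so the order of this pair was not fixed.

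**Figure D1:**
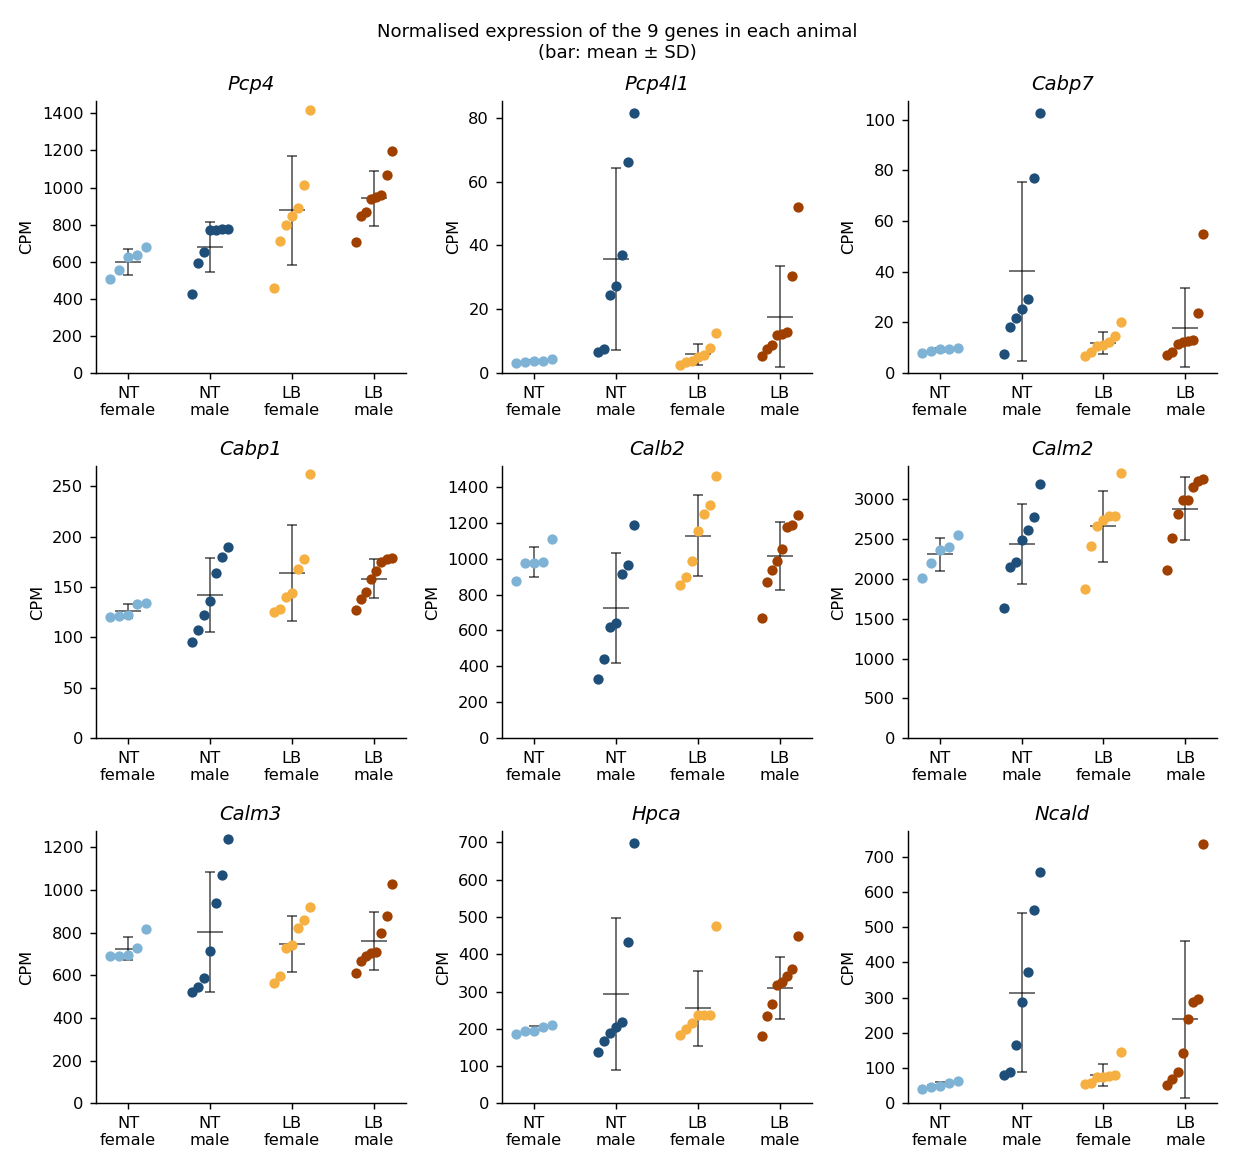
Normalised expression (CPM, axes from 0) of the 9 genes in each of 27 animals by group, with the group mean and SD as a bar. NT females cluster closely in all panels, whereas Pcp4l1, Cabp7 and Ncald spread widely among NT males, from 6.44 to 81.4 CPM for Pcp4l1.

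Pcp4 and Pcp4l1, the small proteins with an IQ motif, differed in level and in spread. Pcp4 was 507, 554, 623, 638 and 681 CPM in the NT females. It ranged from 424 to 778 CPM (median 769) in NT males, from 461 to 1418 CPM (median 847) in LB females and from 705 to 1198 CPM (median 942) in LB males. The sexes overlapped in both treatments, and the ranges of LB and NT rats overlapped within each sex. LB female 8021 (461 CPM) was below all NT females. Pcp4l1 was 3.16, 3.57, 3.64, 3.75 and 4.35 CPM in the NT females. It ranged from 6.44 to 81.4 CPM (median 27.2) in NT males, from 2.60 to 12.4 CPM (median 5.13) in LB females and from 5.28 to 52.0 CPM (median 12) in LB males. All 7 NT males were above all 5 NT females, and the highest were 6112, 3111 and 3113. In LB rats the sexes overlapped, with 3 of 8 males above all females.

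The ratio of Pcp4 to Pcp4l1 within an animal shows the contrast in another way. In NT females Pcp4 was between 155 and 171 times as high as Pcp4l1 in CPM. In NT males the ratio ran from 5.21 in animal 6112 to 120 in animal 4111 (median 24), below the range of the NT females in all 7. In LB females it ran from 114 to 219 (median 173), and in LB males from 13.6 in animal 7122 to 227 in animal 9121 (median 84.6). The LB males thus spanned the whole range of the LB females and reached well into that of the NT males.

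Cabp7 and Cabp1, the calmodulin-like EF-hand proteins, gave a like pair. Cabp7 was 7.76, 8.74, 9.31, 9.37 and 9.75 CPM in the NT females. It ranged from 7.49 to 102 CPM (median 25.2) in NT males, where 6 of 7 animals were above all NT females and 1 (4111) was below them. It ranged from 6.51 to 20.1 CPM (median 10.9) in LB females and from 6.94 to 54.8 CPM (median 12.5) in LB males. Cabp1 was 120, 122, 123, 133 and 134 CPM in the NT females, from 95.9 to 189 CPM (median 136) in NT males, from 125 to 262 CPM (median 144) in LB females and from 128 to 179 CPM (median 162) in LB males. The ratio of Cabp1 to Cabp7 was between 12.5 and 17.2 in NT females. In NT males it ran from 1.05 (animal 6112) to 25.3 (animal 4111), with a median of 5.26.

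**Figure D2:**
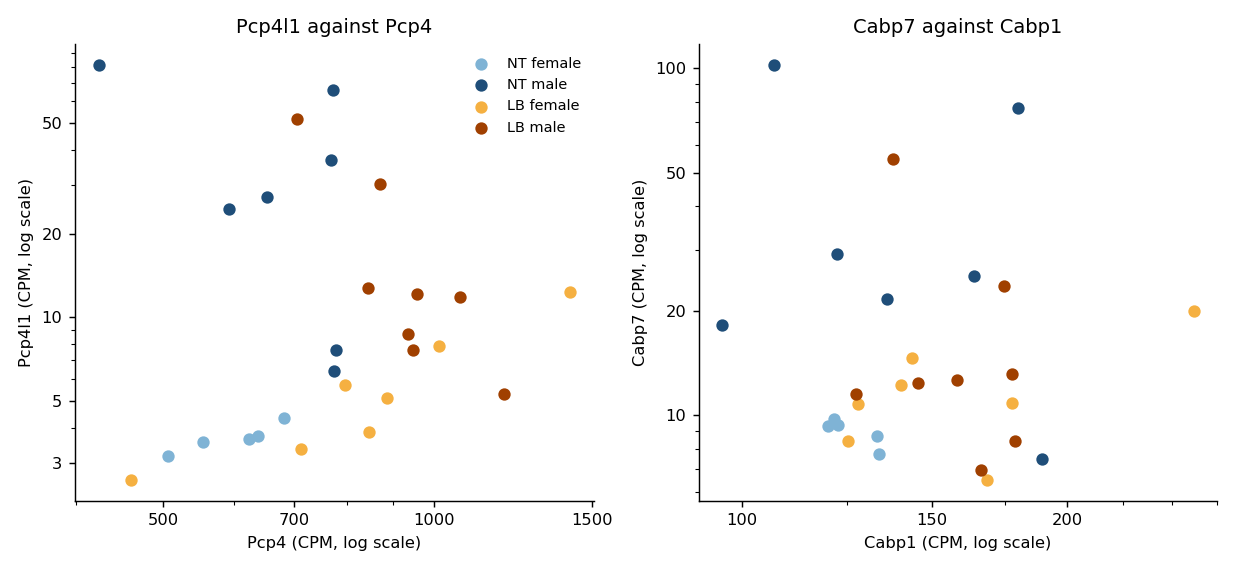
Pcp4l1 against Pcp4 (left) and Cabp7 against Cabp1 (right) in CPM on log axes, each point an animal coloured by group. Pcp4l1 spans a range of 31.3 times over the animals and Pcp4 of 3.34 times, and NT male 6112 joins the lowest Pcp4 (424 CPM) to the highest Pcp4l1 (81.4 CPM).

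Of the neuronal calcium sensors, Ncald was 41.4, 45.4, 50.7, 56.8 and 63.9 CPM in the NT females. NT males ranged from 79.9 to 656 CPM (median 288), and the sexes did not overlap. In LB females it ranged from 54.6 to 146 CPM (median 75.4) and in LB males from 52.0 to 736 CPM (median 191), with 4 of 8 males above all females and 1 below. Hpca lay between 185 and 211 CPM in NT females and between 139 and 699 CPM in NT males. Its LB ranges were 182 to 476 CPM (females) and 181 to 448 CPM (males). The highest Hpca of the NT males was in animal 3113 (699 CPM) and that of the LB males in animal 122 (448 CPM), which also had the highest Ncald.

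The calmodulin genes and calretinin had overlapping values in all groups. Calm2 had group means from 2307 ± 204 CPM (SD, n = 5) in NT females to 2884 ± 394 CPM (SD, n = 8) in LB males. Calm3 had group means from 725 ± 54.9 CPM (SD, n = 5) in NT females to 803 ± 283 CPM (SD, n = 7) in NT males, where the highest were animals 3113 (1240 CPM) and 6111 (1072 CPM). Calb2 averaged 983 ± 83.3 CPM (SD, n = 5) in the NT females, against 728 ± 306 CPM (SD, n = 7) for their male counterparts. With limited bedding the averages were 1128 ± 225 CPM (SD, n = 7) for females and 1015 ± 191 CPM (SD, n = 8) for males. Its lowest values, 328 and 441 CPM, were in NT males 6112 and 6111, and 4 of 7 NT males were below all NT females.

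The first question of the design was whether males and females differ under normal rearing. Between NT males and NT females, 3 of the 9 members (Pcp4l1, Ncald and Cabp7, all higher in males) were past the threshold of 0.05 in the quasi-likelihood fit of edgeR, with the false discovery rate of Benjamini and Hochberg across all 12107 genes. Of all genes tested 15.2% passed, and 10.1% passed with higher expression in males. Since this comparison chose members, nothing is read from that count. With the leading digits of the animal number as a random block in limma-voom (consensus correlation 0.17), 0 of 9 members and 0.0165% of all genes were past the threshold. The log2 fold change was 3.27 ± 0.626 (SE) for Pcp4l1, 2.61 ± 0.574 for Ncald and 2.16 ± 0.531 for Cabp7, and it was 0.18 ± 0.188 for Pcp4 and 0.17 ± 0.169 for Cabp1. Calb2 had a log2 fold change of -0.43 ± 0.220, and Hpca of 0.57 ± 0.313, which was 0.09 with the forebrain marker score as a covariate. Over the 9 members the median was 0.18, against 0.029 over all genes. Every NT male was above every NT female for 3.62% of all genes, and for Pcp4l1 and Ncald among the members.

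The NT sexes also differed in cell type markers. Of 8 oligodendrocyte markers 8 were higher in NT males, and of 8 granule cell markers 4 and of 10 Purkinje cell markers 7 were lower. The granule cell markers summed to between 6270 and 7160 CPM in NT females and to between 2080 and 6200 CPM in NT males. With the granule cell score (the mean of log2 of CPM plus 0.5 over the markers) as a covariate, 0 of 9 members and 0.0248% of all genes were past the threshold, and the log2 fold change was 1.10 for Pcp4l1, 0.21 for Ncald and 0.05 for Cabp7. With the forebrain marker score as a covariate, chosen after the data had been seen, the same 3 members and 12.9% of all genes were past it, with 3.06, 1.87 and 1.80 for Pcp4l1, Ncald and Cabp7. The part of tissue makeup in the difference was not tested.

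Between LB males and LB females 0 of 9 members passed the quasi-likelihood test of edgeR, where 0.248% of all genes did. At an unadjusted p under 0.05 there were 2 members (Pcp4l1, chosen by this comparison, and Ncald) and 2053 of the 12107 genes. DESeq2 called 2 members and 3.37% of all genes, and limma-voom 0 members and 0.231%. Ncald had a log2 fold change of 1.56 ± 0.475 (SE, adjusted p = 0.113 by edgeR), and Pcp4l1 of 1.60 ± 0.503. Cabp7 had 0.59 ± 0.441 (adjusted p = 0.506 by edgeR). Without LB female 5022, the highest LB female for both genes, Pcp4l1 (1.90) and Ncald (1.77) were past the threshold, as were 8.76% of all genes, and with the forebrain marker score as a covariate the values were 1.05 and 0.61 with neither passing.

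**Figure D3:**
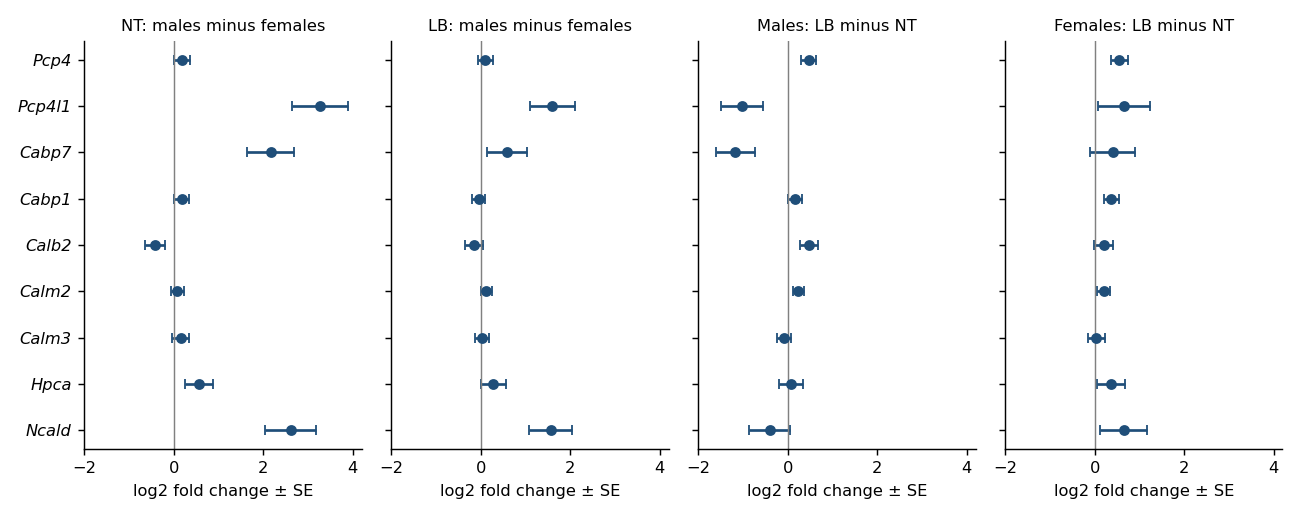
Log2 fold change ± SE of the 9 genes in 4 comparisons, with positive values for higher levels in males (sex comparisons) or in LB rats (treatment comparisons). Pcp4l1, Cabp7 and Ncald stand away from 0 between NT males and females (3.27, 2.16 and 2.61), and all other members lie within 0.57 of it there.

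Whether the sex difference itself differed between treatments was tested as the interaction, which 0 of 9 members and 0.0% of all genes passed with edgeR, and 0 with DESeq2 and limma-voom. At an unadjusted p under 0.05 there were 4.71% of all genes and 2 members, Pcp4l1 (log2 value -1.68 ± 0.753, SE) and Cabp7 (-1.57 ± 0.669). The value of Ncald was -1.05 ± 0.700. These values contain the NT sex difference by which Pcp4l1 and Cabp7 were chosen.

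The treatment comparison asked whether early rearing left a trace in adult expression. The log2 fold change of Pcp4, LB against NT, was 0.51 ± 0.126 (SE) over both sexes, 0.47 ± 0.166 in males and 0.55 ± 0.190 in females. It did not pass the test over all genes. Over both sexes 0 of 9 members passed with edgeR, DESeq2 or limma-voom, where 0.00826% of all genes passed with edgeR, and 4 members and 14.9% of all genes had an unadjusted p under 0.05. The other members among them were Cabp1 (0.26 ± 0.113, adjusted p = 0.281 by edgeR), Calm2 (0.22 ± 0.0953, adjusted p = 0.282 by edgeR) and Calb2 (0.34 ± 0.149, adjusted p = 0.289 by edgeR). Leaving out LB female 8021, which had the lowest Pcp4 of the LB rats (461 CPM), took Pcp4 past the threshold. Its log2 fold change was then 0.54, and 2.73% of all genes passed with it. This was 1 of 27 fits that left out an animal. In 14 other settings the value of Pcp4 was between 0.24 and 0.50 and did not pass. Pcp4 was chosen by this comparison, so nothing is read from that 1 pass.

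Within males, LB against NT, 0 of 9 members and 0.0% of all genes passed with edgeR, and 4 members and 1211 of the 12107 genes had an unadjusted p under 0.05. Cabp7 (-1.17 ± 0.435, SE) and Pcp4l1 (-1.02 ± 0.478) had negative values, and Calb2 (0.48 ± 0.197, adjusted p = 0.472 by edgeR) and Pcp4 positive ones. NT males enter both this comparison and the NT sex difference by which Cabp7 and Pcp4l1 were chosen. Within females 0 of 9 members passed, where 0.00826% of all genes did with edgeR, and Pcp4 and Cabp1 (0.37 ± 0.170, adjusted p = 0.602 by edgeR) had an unadjusted p under 0.05, as had 7.94% of all genes. DESeq2 and limma-voom called no member in either comparison.

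To see which members varied together among animals of the same group, the group means were removed from log2 of CPM plus 0.5 and Pearson's r was computed for the 36 pairs over 27 animals. With permutation within groups (100000 resamples, two-sided) and adjustment over the 36 pairs, 12 passed, 11 of them positive. How many pairs of other genes would pass was not tested, so nothing is read from this count. Genes outside the members also varied with them, such as Trappc1 with Pcp4 (r = 0.895 with group means removed). Pcp4l1, Cabp7 and Ncald varied together. Their r was 0.69 for Pcp4l1 and Cabp7 (rho = 0.64, adjusted permutation p = 0.0153 and 0.00918), 0.72 for Pcp4l1 and Ncald (rho = 0.69, adjusted permutation p = 0.00981 and 0.00792) and 0.71 for Cabp7 and Ncald (rho = 0.59, adjusted permutation p = 0.00981 and 0.0256). Without the 2 animals farthest from the median r was 0.67, 0.77 and 0.71. The 3 genes were positively correlated in each larger group, with r from 0.67 to 0.79 in NT males, 0.76 to 0.84 in LB females and 0.52 to 0.78 in LB males.

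Pcp4 varied with other genes. Its r was 0.78 with Calm2 (rho = 0.56, adjusted permutation p = 0.00144 and 0.0256), 0.62 with Calb2 (rho = 0.66, adjusted permutation p = 0.0081 and 0.00864) and 0.61 with Cabp1 (rho = 0.54, adjusted permutation p = 0.0265 and 0.0379). Without animals 5022 and 6112 these were 0.67, 0.45 and 0.35, so the relation with Cabp1 rested on those animals. Pcp4 and Pcp4l1 had r = -0.11 (rho = -0.04, adjusted permutation p = 0.743 and 0.872), and r was 0.92 in the 7 LB females, -0.54 in the 7 NT males and -0.84 in the 8 LB males. Whether r differed between groups was not tested. Cabp7 and Cabp1 had r = -0.09 (rho = -0.11, adjusted permutation p = 0.813 and 0.764).

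**Figure D4:**
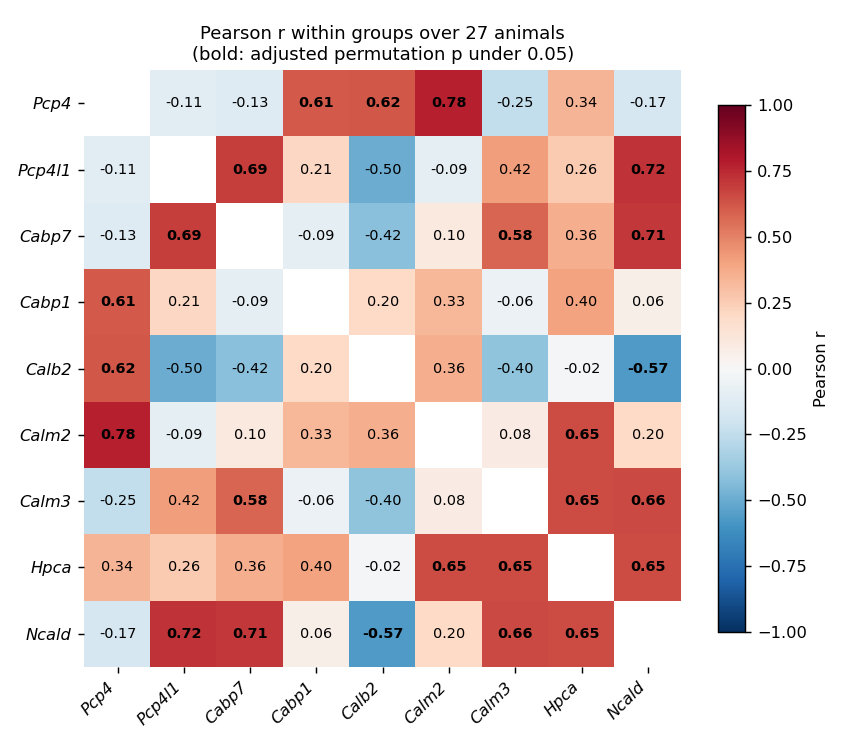
Pearson r between the 9 genes over 27 animals after removal of the group means, red for positive and blue for negative, with pairs that passed the adjusted permutation test in bold. Pcp4l1, Cabp7 and Ncald correlate with each other (0.69 to 0.72), and Pcp4 with Calm2, Calb2 and Cabp1 (0.61 to 0.78).

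Hpca, Calm3 and Ncald also varied together. The r was 0.65 for Hpca and Ncald (rho = 0.67, adjusted permutation p = 0.0121 and 0.00792), 0.65 for Calm3 and Hpca (rho = 0.55, adjusted permutation p = 0.0165 and 0.0328) and 0.66 for Calm3 and Ncald (rho = 0.72, adjusted permutation p = 0.0121 and 0.00792). Without the 2 animals farthest from the median it was 0.62, 0.32 and 0.53, so the relation of Calm3 and Hpca rested on animals 3113 and 6111. Calm2 and Hpca had r = 0.65 (rho = 0.62, adjusted permutation p = 0.0153 and 0.00864), which was 0.57 without the 2 farthest animals. The last positive pair, Cabp7 and Calm3 (r = 0.58, rho = 0.50, adjusted permutation p = 0.0489 and 0.0743), fell to 0.39 without the 2 farthest animals. Calb2 and Ncald varied in opposite directions (r = -0.57, rho = -0.46, adjusted permutation p = 0.0408 and 0.115). That r was -0.50 without the 2 farthest animals.

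The same was done for the 9 members with scores of granule cell, deep nucleus, meningeal and oligodendrocyte markers, and 4 of 36 relations passed. The share that other genes would give was not tested, so nothing is read from this count. The granule cell score went against Ncald (r = -0.84, rho = -0.91, adjusted permutation p = 0.00036 and 0.00036), Cabp7 (r = -0.83, rho = -0.68, adjusted permutation p = 0.00036 and 0.0119) and Pcp4l1 (r = -0.77, rho = -0.70, adjusted permutation p = 0.00408 and 0.00936). Without animals 3113 and 6112 these were -0.88, -0.71 and -0.72. The deep nucleus score went with Pcp4l1 (r = 0.68, rho = 0.50, adjusted permutation p = 0.0232 and 0.122), with 0.54 when animals 3111 and 6112 were left out. For Pcp4 the granule cell score had r = -0.01 (rho = 0.13, adjusted permutation p = 0.971 and 0.923) and for Cabp1 r = -0.23 (rho = -0.12, adjusted permutation p = 0.718 and 0.951). Hpca (rho = -0.64, adjusted permutation p = 0.0133) and Calm3 (rho = -0.65, adjusted permutation p = 0.0254) passed against this score by rank, while their r of -0.53 and -0.60 did not pass (adjusted permutation p = 0.138 and 0.0983).

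**Figure D5:**
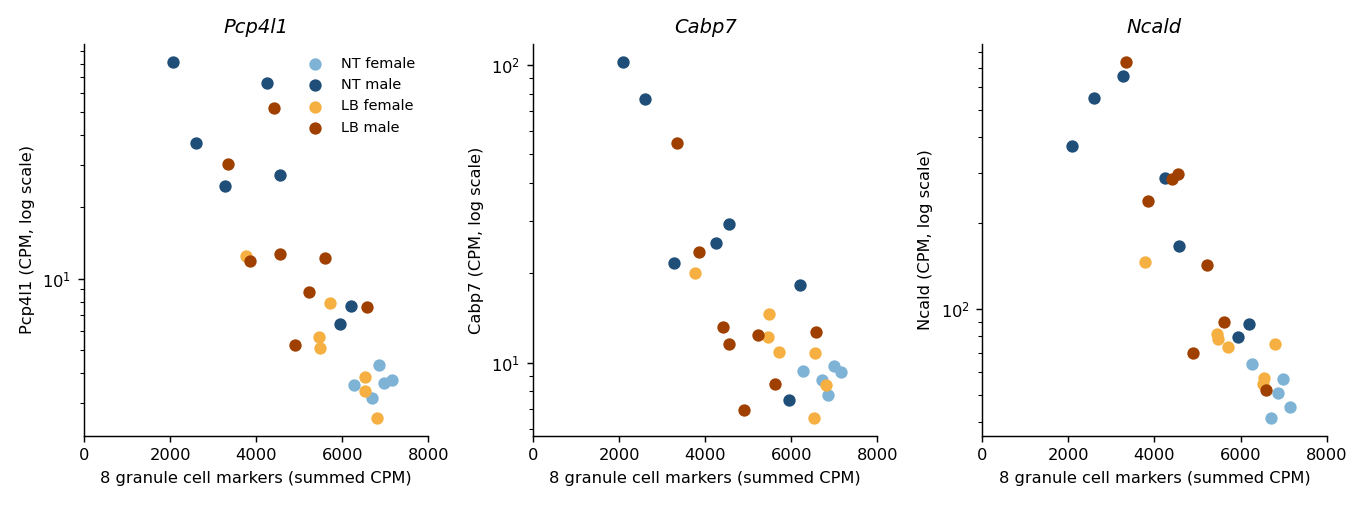
Pcp4l1, Cabp7 and Ncald (CPM, log axes) against the summed CPM of 8 granule cell markers in each animal, coloured by group. Pcp4l1 and Cabp7 are highest in the animal with the lowest granule cell markers (6112), Ncald is highest in LB male 122, and NT females lie at the right, between 6270 and 7160 CPM of the markers.

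Of 45 further relations with scores added after the data had been seen, 11 passed. The share for other genes was not tested here either. The forebrain score went with Calm3 (r = 0.77, rho = 0.72, adjusted permutation p = 0.00225 and 0.00375), Ncald (r = 0.76, rho = 0.63, adjusted permutation p = 0.00394 and 0.0256) and Hpca (r = 0.72, rho = 0.67, adjusted permutation p = 0.0116 and 0.0153). Without animals 3113 and 6111 r was 0.58, 0.70 and 0.40, so the relation with Hpca rested on those animals. The Purkinje cell score went against Pcp4l1 (r = -0.76, rho = -0.69, adjusted permutation p = 0.00225 and 0.00517) and was not seen to go with Pcp4 (r = -0.10, rho = -0.03, adjusted permutation p = 0.876 and 0.894). It also went against Ncald (r = -0.63, rho = -0.61, adjusted permutation p = 0.0069 and 0.0153). The microglia score went with Pcp4l1 (r = 0.68), Cabp7 (0.72) and Ncald (0.69), each with an adjusted permutation p of 0.00394 for r. The difference in mean log2 CPM between short and long transcripts, a measure that can move with RNA quality, went with Pcp4 (r = 0.76, rho = 0.54, adjusted permutation p = 0.00394 and 0.0419) and Calm2 (r = 0.69, rho = 0.57, adjusted permutation p = 0.00394 and 0.0256). Without the 2 farthest animals, 5022 among them, r was 0.52 and 0.56. For Hpca r was 0.53 (rho = 0.48, adjusted permutation p = 0.0425 and 0.057), and 0.38 without those animals. This measure, centred over all animals, lay between -0.55 and -0.25 in NT females and between -0.39 and 0.41 in NT males. It lay between -0.77 and 0.90 in LB females and between -0.07 and 0.57 in LB males. With it as a covariate, 348 genes had an unadjusted p under 0.05 by edgeR for LB against NT over both sexes, against 1804 without it. Pcp4 did not pass in either fit. The exons of Pcp4 cover 698 bases. The part of transcript length in the values of Pcp4 was not tested.

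The other genes of calcium signalling were taken from 7 lists (calmodulins, small IQ proteins, the CaBP family, neuronal calcium sensors, calcium buffers, the S100 family and calmodulin targets), with 64 genes tested beside the members. Between NT males and females 10 were higher and 10 lower in males by edgeR, 31.2% of those tested, against 15.2% of all genes. Their median log2 fold change was 0.12, against 0.029 over all genes. The lists were chosen with earlier results of these data known, so nothing is read from this share. In this comparison 2 genes of the whole table passed with the block on animal numbers. With the granule cell score as a covariate 3 passed. The calls below are from the fit without block or covariate. In each of the other 5 comparisons 0 of the 64 passed. Of 10 S100 genes tested 5 were higher in NT males, among them S100a10 (1.45 ± 0.324, adjusted p = 0.0115 by edgeR), the partner of annexin A2, and S100a1 (1.03 ± 0.287, adjusted p = 0.0217 by edgeR). The others were S100a11, S100a13 and S100b, of which S100b, a protein of astrocytes and oligodendrocytes, is named after its values were seen. S100a1 rose from a mean of 27.7 ± 4.60 CPM (SD, n = 5) among NT females to 56.6 ± 22.4 CPM (SD, n = 7) among NT males.

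Of 41 calmodulin targets tested 9 were lower and 3 higher in NT males. Those lower included Atp2b3, a plasma membrane calcium pump (-0.65 ± 0.165, adjusted p = 0.0153 by edgeR), the kinase kinase Camkk2 (-0.86 ± 0.210, adjusted p = 0.0136 by edgeR) and the calmodulin-stimulated adenylyl cyclase Adcy1 (-1.59 ± 0.436, adjusted p = 0.0204 by edgeR). For Adcy1 the NT female mean was 154 ± 35.7 CPM (SD, n = 5) and the NT male mean 51.1 ± 19.8 CPM (SD, n = 7). Those higher were Rcan2, which binds calcineurin (0.90 ± 0.252, adjusted p = 0.0218 by edgeR), Camkv (3.91 ± 1.20, adjusted p = 0.0313 by edgeR) and the phosphodiesterase Pde1a (3.20 ± 0.995, adjusted p = 0.0335 by edgeR), which is named after its values were seen. Of the small IQ proteins Nrgn (neurogranin, of forebrain neurons) was higher, with 4.51 ± 1.31 (adjusted p = 0.0252 by edgeR). Nrgn, Camkv and Pde1a varied widely among NT males. Nrgn ran from 17.4 CPM in animal 4111 to 1050 and 1490 CPM in animals 3113 and 6111 (median 32.7). Camkv had a median of 9.80 CPM in NT males with 318 and 271 CPM in animals 3113 and 6111, and Pde1a a median of 2.68 CPM with 94.2 CPM in animal 6111. Animals 3113 and 6111 had the highest summed forebrain markers of all animals (477 and 532 CPM) and the highest forebrain scores (1.54 and 1.84, centred over all animals). LB female 5022 had a sum of 467 CPM, of which Ppp1r1b gave 398 CPM, with a score of -0.461. The part of forebrain markers was not tested. Within the CaBP family Caln1 went the other way from Cabp7 (-0.77 ± 0.246, adjusted p = 0.0361 by edgeR). On the list of calmodulins the calmodulin-like gene Calml4, which is not a Calm gene, was higher (3.19 ± 0.796, adjusted p = 0.0147 by edgeR). Its levels were low, with means of 0.353 ± 0.145 CPM (SD, n = 5) for NT females and 3.28 ± 4.31 CPM (SD, n = 7) for NT males. None of 3 calcium buffers tested passed, and the largest log2 fold change there was that of the member Calb2.

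The genes whose log2 of CPM plus 0.5 followed a member most closely over the 27 animals, group differences included, also differed within each pair. For Pcp4 they were Trappc1 (Pearson r = 0.934), Pvalb (0.932), Gng13 (0.923) and Rpl30 (0.917). Pvalb encodes the calcium buffer parvalbumin of Purkinje cells and interneurons, and Gng13 is a Purkinje cell marker. For Pcp4l1 they were Tctex1d1 (0.943), Cldn10 (0.939), Thrsp (0.934) and Pmepa1 (0.931), and for Cabp7 they were Pou3f3 (0.888), Spag6 (0.883), Prph (0.877) and Nek6 (0.871). Prph is a neurofilament gene of motor and sensory neurons. For Cabp1 they were Zfp414 (0.870), Ppp1r12c (0.867), LOC500956 (0.862) and Ankrd13d (0.861). No gene was among the 4 closest of more than 1 of these members. The genes share libraries and tissue makeup, and these values are a description.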

How the data were processed

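Messenger RNA libraries (KAPA mRNA Hyperprep, Illumina HiSeq 4000) were made from punches of 27 rats after samples of low RNA integrity had been left out. The authors aligned reads to rn6, with STAR 2.5.2b and featureCounts (Subread 1.5.1) in the submitters' processing notes, and deposited raw counts per gene. The annotation and the handling of strand and multi-mapping reads are not given in the sources used here. Columns were matched to animals by sample title, which serves as the animal number. Nothing in the labels names litters, so p values measure the spread between these animals.

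From the counts, filterByExpr (minimum count 10, minimum total 15) kept 12107 genes. TMM normalization and the robust quasi-likelihood test of edgeR 4.0.16 (R 4.3.3, prior count 0.125) were applied to all 27 animals in 1 model of 4 groups, with Benjamini-Hochberg adjustment and a threshold of 0.05. The SE of a log2 fold change was obtained from that change and its F statistic. Correlations used log2 of CPM plus 0.5 with permutation within groups (Python 3.11.15, numpy 2.4.6), for which the smallest possible p is 1e-05. Models and permutations were tested on simulated data. Alternatives were DESeq2 1.42.0, limma-voom (limma 3.58.1), other normalizations and filters, covariates, a block for titles sharing all but the last digit, a pseudocount of 2, and leaving out animals. Covariates for oligodendrocyte, forebrain and transcript length scores were added after the data were seen.

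The members and gene lists were chosen with earlier results of these data known. Named genes are the members, up to 4 passing genes per list and comparison plus the largest fold change, the 4 genes closest to a member, and markers. Animal-to-animal chi-square values (lowest 8.49 per degree of freedom over 80 pairs within groups) showed no duplicated library. Protein sequences were not used here, and some genes of the marker and calcium lists are not reported here.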

Additional observations from a re-analysis of the deposited data

Results flagged for a closer look

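Of 36 sets of values (9 genes in 4 groups) tested for a sample far from the others with Dixon's test, 5 were past the critical value, where chance gives about 1 in 20. In LB females the highest animal in all 3 cases was 5022, with 262 CPM of Cabp1, 476 CPM of Hpca and 146 CPM of Ncald. This animal also had the highest summed oligodendrocyte markers (40300 CPM) and the lowest summed granule cell markers (3770 CPM) of the LB females, and its part in their results is given by leaving it out. In LB males animal 122 had 54.8 CPM of Cabp7 and 736 CPM of Ncald. It had the lowest summed granule cell markers of the LB males (3350 CPM) and the highest Tbr1 of that group (106 CPM). The part of tissue makeup in these values was not tested.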

How the results depend on the processing

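Between NT males and females the number of members called stayed within 3 to 4 when any animal was left out. It was 0 with the title block, the granule cell, the deep nucleus minus granule cell or the oligodendrocyte score as a covariate, and 1 with the meningeal score, where the genes called over the whole table fell from 1840 to 2, 3, 3, 3 and 90. With the block the log2 fold changes were 2.79 (Pcp4l1), 2.24 (Ncald) and 1.72 (Cabp7). Between LB males and females DESeq2 called 2 (408 genes in all, against 30), and leaving out single animals gave 0 to 2 (1059 genes in all without LB female 5022). Over both sexes, LB against NT, leaving out single animals gave 0 to 1 (330 genes in all without LB female 8021, against 1). Signs turned for 6 of the 23 printed log2 fold changes. Between NT males and females Pcp4 was -0.12 with the transcript length index, Cabp1 was -0.01 with the granule cell score and -0.03 with that index, and Hpca was -0.39 with the granule cell score. With the granule cell score Cabp7 was -0.09 between LB males and females and Ncald was 0.38 for the interaction, and with the deep nucleus minus granule cell score Pcp4l1 was 0.04 between LB and NT males. The r of Pcp4 and the granule cell score was 0.08 with library size alone. The causes were not tested. Of the other 31 log2 fold changes, none above 0.66 in size, 25 turned sign in some setting and 0 passed in any. No paired analysis was possible because the labels give no replicate numbers shared between groups. A fit of the compared groups alone was not run for the interaction and for LB against NT over both sexes. The depth gave at least 50 counts for each member in each animal.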

Other observations

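Parvalbumin (Pvalb), the buffer closest to Pcp4 over animals, had a log2 fold change of 0.55 ± 0.162 (SE) between LB and NT rats. It did not pass the test over all genes. Pvalb was picked by its correlation with Pcp4, group differences included, and Pcp4 was chosen by this same comparison. The value is therefore a description, and nothing is read from it.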
